A study of Arabidopsis thaliana with 12 samples.

Results

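Nitrate reduction and ammonium assimilation turn soil nitrate into glutamine and glutamate, and 10 Arabidopsis thaliana genes of this route were followed, chosen by locus code out of 28775 genes in the count files. They encode the nitrate reductases NIA1 (AT1G77760) and NIA2 (AT1G37130), nitrite reductase NIR1 (AT2G15620), and the plastid glutamine synthetase GLN2 (AT5G35630). The others are the ferredoxin-dependent glutamate synthase GLU1 (AT5G04140), the NADH-dependent glutamate synthase GLT1 (AT5G53460) and the cytosolic glutamine synthetases GLN1;1 (AT5G37600), GLN1;2 (AT1G66200), GLN1;3 (AT3G17820) and GLN1;4 (AT5G16570). All 10 had enough counts to be tested.

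As background, nitrate reductase makes nitrite in the cytosol, nitrite reductase makes ammonium in the plastid with electrons from ferredoxin, and glutamine synthetase and glutamate synthase together pass the ammonium on to amino acids. In leaves GLN2 and GLU1 also take up the ammonium that photorespiration releases, while the cytosolic glutamine synthetases and GLT1 are best known from roots and veins. SnRK1 is a protein kinase active when energy is short, known to phosphorylate nitrate reductase, and the S1 group of bZIP transcription factors acts partly downstream of it.

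The study compared messenger RNA of SnRK1 and S1-bZIP lines with wild type after a prolonged night. Group 1, the SnRK1-labelled line, carried a snrk1-alpha-1 knockout and an inducible snrk1-alpha-2 knockdown, and spent 6 d on Est, an abbreviation that the labels do not spell out. Group 2 was wild type on Est for the same 6 d. Group 3, the S1-labelled line, had bZIP1 and bZIP53 knocked out, with bZIP2, bZIP11 and bZIP44 named as inducibly knocked down, and received 1 d of Est after 5 d on medium without it. Group 4 was wild type with that same schedule. All 4 groups were Col-0 seedlings, 14 d old at the start and about 3 weeks old at harvest, grown in 12 h light and 12 h dark and sampled after 6 h of extended night, with 3 libraries each. No library had a normal day or lacked Est, so nothing here measures the effect of darkness or of Est itself, and each line is a single named genotype.

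Libraries held 3760168 to 9403687 counts. In the SnRK1-labelled line KIN11, the kinase subunit gene named as knocked down, fell (log2 fold change -1.58, adjusted p = 1.86e-07), and KIN10, named as knocked out, fell by 0.50 on the log2 scale (adjusted p = 0.00112). In the S1-labelled line bZIP1 and bZIP53 fell by 2.62 and 2.26 on the log2 scale. There bZIP2 (0.01), bZIP11 (-0.20) and bZIP44 (0.85) were not called, so the lines go by their labels here. A fall would be hard to see for bZIP11 (25 counts, 23 in wild type) and bZIP44 (38 and 17). In the SnRK1-labelled line all 5 bZIP genes were called: bZIP11 (5.66), bZIP44 (2.45), bZIP53 (0.56) and bZIP2 (0.33) higher, and bZIP1 (-1.55) lower. The S1-labelled line had less KIN11 as well (-0.80, adjusted p = 0.0135). The summed level of 5 leaf markers ranged over 4345 to 9013 normalised CPM, counts scaled to library size, in the SnRK1-labelled line and 30231 to 39352 CPM in its wild type, against 35707 to 42096 CPM in the S1-labelled line and 43281 to 56506 CPM in its wild type. None of the 5 was at 0. Summed root markers (7 genes) were low throughout, at 3.89 to 6.14 CPM in the SnRK1-labelled line, 17.2 to 21.9 CPM in its wild type, 5.56 to 6.49 CPM in the S1-labelled line and 4.92 to 14.2 CPM in its wild type. Of 3 flower markers the sum reached 8.08 CPM at most, in wild type on 6 d Est, and 3 seed markers never passed 0.289 CPM. In RNA from seedlings, fewer cells of a type and less RNA per cell cannot be told apart.

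The 250 bases before the annotated start of each gene were read from the TAIR10.1 genome, whose release name differs from the TAIR10 of the processing notes. 4 windows are shown: those of the 3 genes that reduce nitrate and nitrite, and that of GLN1;3, which alone held both bZIP motifs. They lie at chr1:29239485-29239734 (minus strand) for NIA1, chr1:14158202-14158451 (plus strand) for NIA2, chr2:6810145-6810394 (plus strand) for NIR1 and chr3:6096951-6097200 (plus strand) for GLN1;3. Capitals mark ACGT, the core that plant bZIP factors bind, and ACTCAT, an element bound by S1 bZIP factors.
NIA1: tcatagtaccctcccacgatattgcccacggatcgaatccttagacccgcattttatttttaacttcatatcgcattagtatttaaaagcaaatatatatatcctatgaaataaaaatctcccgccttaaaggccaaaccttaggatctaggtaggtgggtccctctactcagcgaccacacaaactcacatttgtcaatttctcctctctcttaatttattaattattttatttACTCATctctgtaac
NIA2: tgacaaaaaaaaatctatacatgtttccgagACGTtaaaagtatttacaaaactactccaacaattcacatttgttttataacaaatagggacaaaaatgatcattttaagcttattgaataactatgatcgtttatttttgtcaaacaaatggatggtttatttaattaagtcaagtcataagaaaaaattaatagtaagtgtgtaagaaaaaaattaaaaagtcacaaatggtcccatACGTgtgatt
NIR1: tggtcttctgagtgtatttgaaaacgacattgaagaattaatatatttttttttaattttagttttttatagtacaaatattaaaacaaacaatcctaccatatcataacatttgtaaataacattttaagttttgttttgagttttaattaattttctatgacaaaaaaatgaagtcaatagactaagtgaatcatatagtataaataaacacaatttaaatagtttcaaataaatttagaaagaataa
GLN1;3: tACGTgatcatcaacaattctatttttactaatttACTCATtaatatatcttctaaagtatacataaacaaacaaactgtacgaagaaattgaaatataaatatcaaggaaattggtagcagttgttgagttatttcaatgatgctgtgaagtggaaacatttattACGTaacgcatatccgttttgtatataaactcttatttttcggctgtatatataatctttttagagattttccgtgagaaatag

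ACGT, which reads the same on both strands, stood in 4 of the 10 windows (NIA2, GLN2, GLT1 and GLN1;3). It stood in 44.1% of all 27437 windows of the same length before protein-coding genes of the nuclear chromosomes. ACTCAT, searched on both strands and not overlapping ACGT here, stood in 2 of 10 (NIA1 and GLN1;3), against 12.3% of all windows. The half-sites of the nitrate-responsive element, CTT and AAG kept 10 bases apart, were in none of the 10 windows and in 8.02% of all windows, which says only that these letters are not in these stretches.

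Because isoforms of an enzyme are close copies, shared sequence was checked before levels were compared. The most alike pair, GLN1;1 and GLN1;2, had 87.5% identical coding bases, and the stretch below is the longest that they share without a difference, 44 bases starting at coding base 892 of GLN1;1 and 919 of GLN1;2.
shared by GLN1;1 and GLN1;2: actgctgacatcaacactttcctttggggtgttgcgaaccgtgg
NIA1 and NIA2 were 74.2% identical, with at most 20 bases in a row. Stretches of 50 bases found in another gene made up 0.56% of GLU1 and 1.03% of GLT1 and were absent from the other members. GLU1 shares 1.44% of its exon bases with a gene on the opposite strand and GLT1 1.67% with a neighbour on its own strand, and the sources used here do not say how such overlaps were counted.

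The SnRK1-labelled line carried more transcript for reducing nitrate, and more of the cytosolic and NADH-dependent assimilation genes, than its wild type. GLN1;1, NIR1, NIA1, GLN1;3, GLT1 and NIA2 rose, by 7.91-fold for GLN1;1 down to 1.52-fold for NIA2. GLN2 and GLU1 did not join them: GLN2 was called lower, 1.55-fold, and GLU1 was not called. By edgeR's quasi-likelihood test, with p-values adjusted over all 18388 genes tested, 6 of the 10 were called higher and 1 lower at an adjusted p under 0.05. Among all genes 68.4% were called, 35.4% higher and 33.0% lower, so a call by itself is common in this comparison. The CPM of the 2 groups did not overlap for 7 of the 10 genes, against 70.9% of all genes. The median log2 fold change was 1.38 over the 10 genes and 0.04 over all genes. The 10 were chosen with earlier results of these data known, so this contrast describes them and tests nothing. Together the 10 genes took 0.625%, 0.613% and 0.600% of all counts in the SnRK1-labelled line, against 0.302%, 0.269% and 0.238% in its wild type. In the S1-labelled line they took 0.625%, 0.468% and 0.472%, against 0.530%, 0.599% and 0.639% in its wild type. These are parts of library totals, a scaling in which the median log2 fold change of all genes in the SnRK1 comparison is 0.64. NIA2 weighs heavily in them, with 17116 of the 40901 counts in SnRK1-labelled replicate 1 and 11892 of 28375 in replicate 1 of its wild type.

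**Figure D1:**
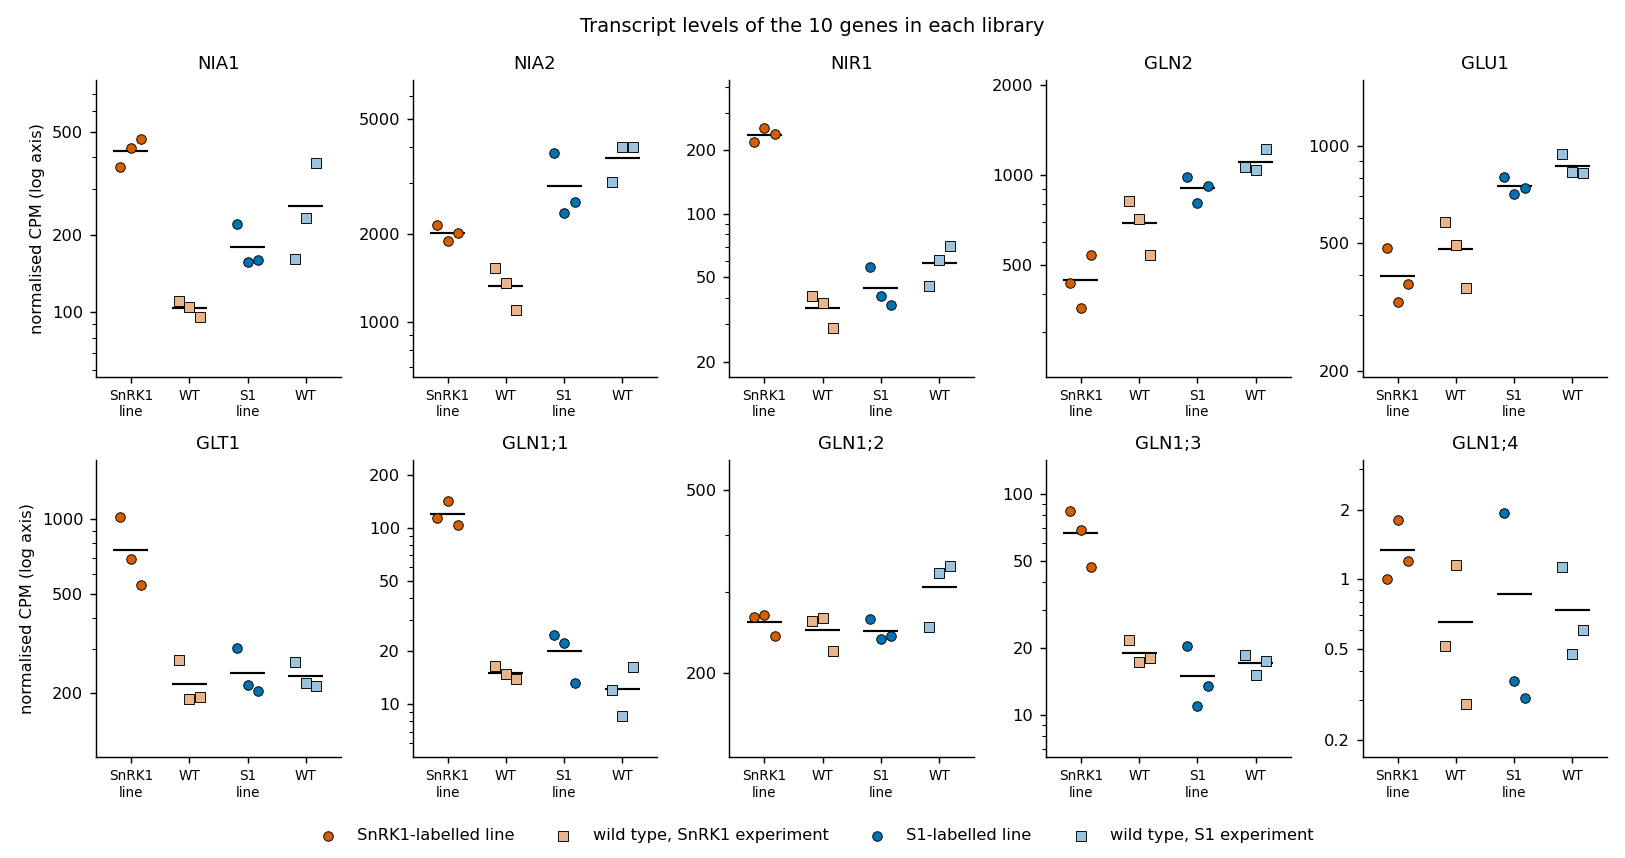
Normalised CPM (log axis) of each gene in the 12 libraries, where points are libraries, horizontal lines group means. For NIR1, GLT1, GLN1;1 and GLN1;3 the 3 libraries of the SnRK1-labelled line lie above all other libraries. For NIA1 they lie above their own wild type. NIA2 of that line lies above its own wild type and, in this scaling but not by library totals, below every library of the S1 experiment.

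NIA2 supplies most nitrate reductase transcript. Its level was 2146, 1901 and 2027 CPM in the SnRK1-labelled line, against 1530.1, 1357 and 1099 CPM in its wild type. In the S1 experiment NIA2 measured 3812, 2374 and 2583 CPM in the S1-labelled line and 3024, 3988 and 4009 CPM in wild type. In normalised CPM the SnRK1-labelled libraries thus exceeded their own wild type without overlap, but stayed below all 6 libraries with 1 d of Est. That order between the experiments depends on the scaling and is lost by library totals. NIA2 took 17116 of 6548064 counts in SnRK1-labelled replicate 1, a larger part than the 13176 of 5421722 in S1-labelled replicate 2. NIA2 rose modestly against its own wild type (log2 fold change 0.61 ± 0.22 SE, 95% interval 0.15 to 1.07, adjusted p = 0.0198). That call rests on few libraries: the adjusted p is 0.0517 without wild-type replicate 2 and 0.0973, at a log2 fold change of 0.48, without wild-type replicate 3.

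NIA1, the second nitrate reductase, changed more. The SnRK1-labelled line had 366, 433 and 467 CPM, against 111, 105 and 96.1 CPM in its wild type. The S1-labelled line had 221, 157 and 159 CPM, and its wild type 161, 232 and 378 CPM. The SnRK1-labelled line and its wild type do not overlap, and within the S1 experiment the groups do, with replicate 3 of wild type the highest of its 3. NIA1 rose 4.05-fold in the SnRK1-labelled line (2.02 ± 0.24, interval 1.52 to 2.52, adjusted p = 1.01e-06).

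NIA1 also made up more of the nitrate reductase transcript. Per kilobase of exon, NIA1 gave 14.8%, 18.8% and 19.0% of nitrate reductase reads in the SnRK1-labelled line, against 6.87%, 7.26% and 8.16% in its wild type. Both isoforms come from the same library, so this share does not depend on scaling between libraries. The groups do not overlap, and the exact two-sided permutation test gives p = 0.1, the smallest that 3 against 3 libraries allow. In the S1-labelled line the share averaged 5.91% ± 0.375, against 6.49% ± 1.96 in its wild type (SD, n = 3 each, exact permutation p = 0.9).

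NIR1, which takes nitrite on to ammonium, stood furthest from wild type among the reducing enzymes. It measured 219, 254 and 239 CPM in the SnRK1-labelled line, against 41.0, 38.0 and 28.9 CPM in its wild type. The S1-labelled line gave 56, 40.7 and 37.2 CPM, against 45.4, 60.6 and 70.2 CPM in its wild type. The 3 SnRK1-labelled libraries lay between 219 and 254 CPM and the other 9 between 28.9 and 70.2 CPM. NIR1 rose 6.51-fold (2.70 ± 0.18, interval 2.32 to 3.09, adjusted p = 1.67e-09).

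Among the cytosolic glutamine synthetases GLN1;1 and GLN1;3 rose and the most abundant gene was not called. GLN1;1, a high-affinity form, had 114, 143 and 103 CPM in the SnRK1-labelled line, against 16.5, 14.8 and 13.9 CPM in its wild type. The groups are far apart, and GLN1;1 rose 7.91-fold (2.98 ± 0.21, interval 2.53 to 3.43, adjusted p = 3.44e-09), the largest fold among the 10 genes. GLN1;3 had 83.9, 69.0 and 46.7 CPM, against 21.7, 17.3 and 18.2 CPM in wild type, and rose 3.47-fold (1.79 ± 0.21, adjusted p = 1.09e-06). GLN1;2, the most abundant cytosolic form in every group, had 265, 268 and 241 CPM in the SnRK1-labelled line, against 259.9, 263 and 224 CPM in its wild type. These overlap (0.05 ± 0.14, interval -0.24 to 0.34, adjusted p = 0.763). Scaled by library totals, GLN1;2 would be called higher (0.65, adjusted p = 0.000237), where the median of all genes is 0.64. GLN1;4 was barely detected, with 36 counts over the 3 SnRK1-labelled libraries, 12 in their wild type, 20 in the S1-labelled line and 13 in its wild type. Its estimate of 0.98 ± 0.62 (interval -0.33 to 2.29, adjusted p = 0.172) is not resolved at this depth, although by library totals it would be called (1.59, adjusted p = 0.0266).

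GLT1, the glutamate synthase that uses NADH, had 1017, 692 and 541 CPM in the SnRK1-labelled line, against 272, 189 and 194 CPM in its wild type. In the S1 experiment it measured 304, 216 and 204 CPM in the S1-labelled line and 268, 220.2 and 213 CPM in wild type. The SnRK1-labelled libraries spread widely, yet each exceeded every other library. GLT1 rose 3.43-fold (1.78 ± 0.23, interval 1.3 to 2.26, adjusted p = 2.42e-06). The 3 root markers with enough counts were called lower in the same comparison, with a median log2 fold change of -2.88 and the summed levels given above, and their part in the results for GLT1, GLN1;1 and GLN1;3 was not tested.

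GLN2 and GLU1 behaved otherwise. GLN2 had 435, 361 and 539.7 CPM in the SnRK1-labelled line, against 818, 715 and 542 CPM in its wild type. The groups just fail to overlap, and GLN2 was called lower (-0.64 ± 0.19, interval -1.03 to -0.24, adjusted p = 0.00592), but not when libraries were scaled by their totals (-0.04, adjusted p = 0.853) or on the 5000 most expressed genes (-0.28, adjusted p = 0.15). GLU1 had 483, 328 and 373 CPM, against 581, 494 and 362 CPM in wild type. These overlap, and GLU1 was not called (-0.28 ± 0.18, interval -0.67 to 0.10, adjusted p = 0.182), at 0.31 by totals and 0.08 on the 5000 most expressed genes. Without SnRK1-labelled replicate 1 or wild-type replicate 3, GLU1 would be called lower (-0.46 in both cases, adjusted p = 0.0458 and 0.0390). The leaf markers given above were all 5 called lower in the same comparison, with a median log2 fold change of -2.38, and their part in the results for GLN2 and GLU1 was not tested.

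**Figure D2:**
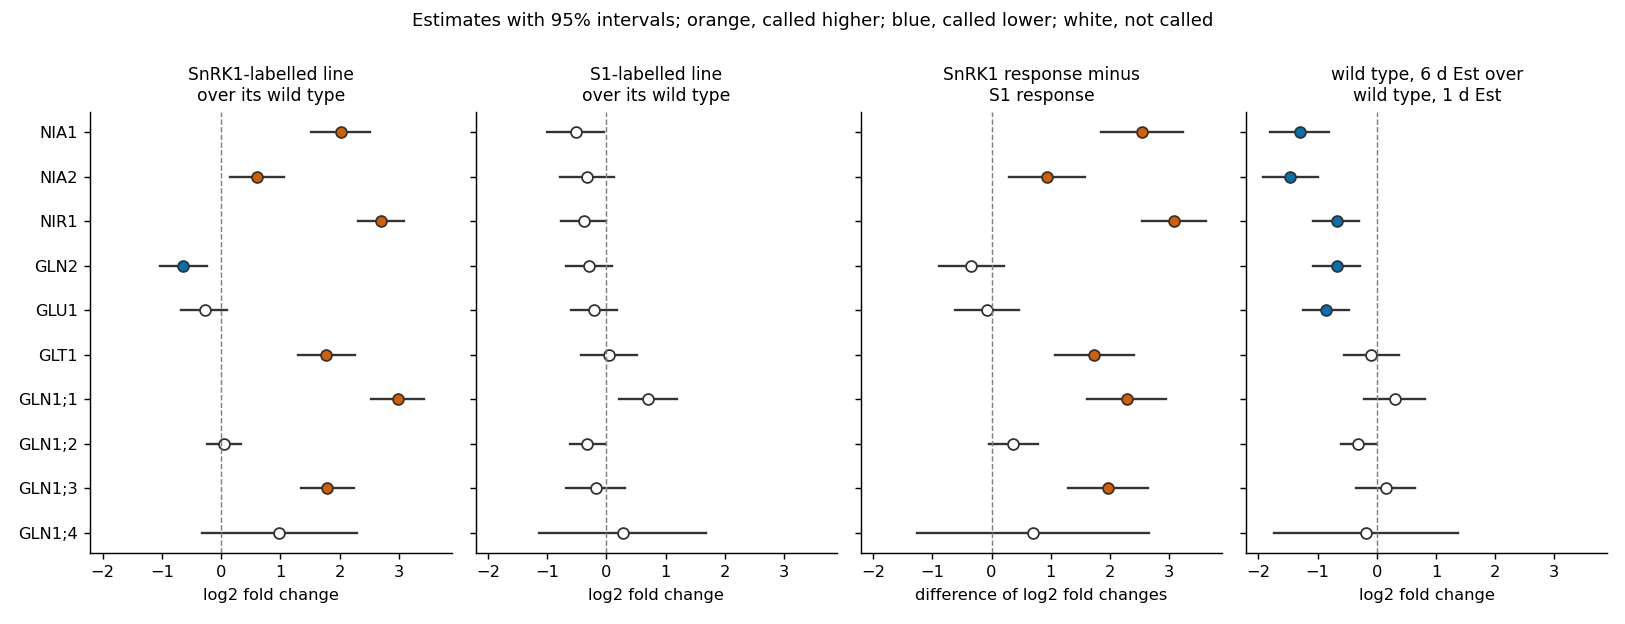
Log2 fold changes of the 10 genes with 95% intervals in the 2 line comparisons, the difference between them, and wild type on 6 d against 1 d of Est, where orange is called higher, blue called lower, white not called. 6 genes are called higher in the first panel, 0 in the second, and 5 are called lower in the last.

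Within glutamine synthetase the plastid gene held a smaller share in the SnRK1-labelled line and the cytosolic genes a larger one. GLN2 gave 42.2%, 36.8% and 51.8% of glutamine synthetase reads per kilobase in the SnRK1-labelled line, against 68.5%, 65.7% and 62.7% in its wild type. The groups do not overlap (exact permutation p = 0.1, the smallest possible). GLN1;1 averaged 15.7% ± 3.22 of that total in the SnRK1-labelled line and 1.92% ± 0.178 in its wild type, and GLN1;3 8.86% ± 2.53 against 2.49% ± 0.349 (SD, n = 3 each). GLN1;2 held 31.6% ± 2.63, against 29.9% ± 2.57. Within the cytosolic genes alone, GLN1;1 made up 25.3%, 30.6% and 27.2% in the SnRK1-labelled line, against 5.80%, 5.26% and 5.69% in its wild type.

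In the same libraries the NADH form took a larger share of glutamate synthase transcript. GLT1 gave 55.3%, 53.6% and 45.9% of glutamate synthase reads per kilobase in the SnRK1-labelled line, against 24.1%, 20.5% and 26.3% in its wild type (exact permutation p = 0.1). The S1-labelled line had 20.8%, 17.5% and 16.1%, against 16.4%, 15.6% and 15.2% in its wild type (exact permutation p = 0.2). The SnRK1 pair is without overlap and the S1 pair overlaps.

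**Figure D3:**
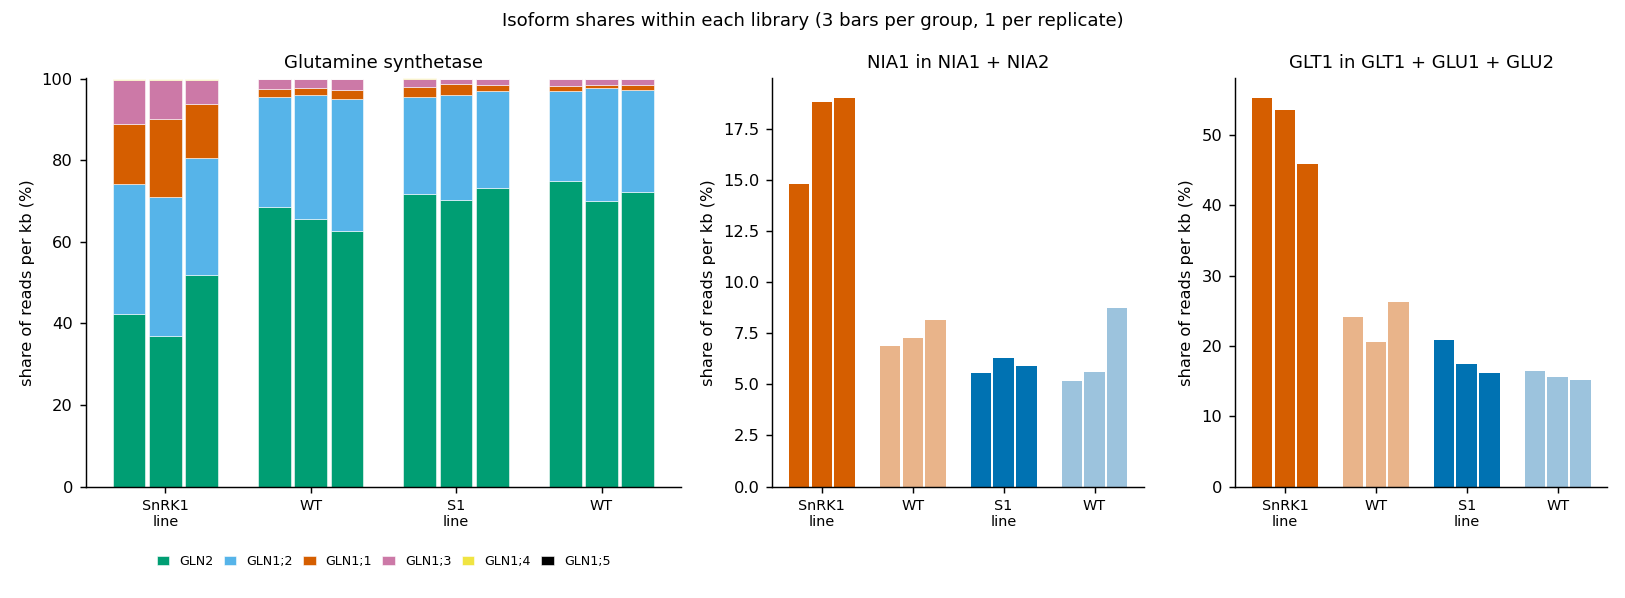
Share of reads per kilobase (%) that each isoform takes within its enzyme, 1 bar per library. In the SnRK1-labelled line GLN2 lies at 36.8% to 51.8% of glutamine synthetase, NIA1 lies at 14.8% to 19.0% of nitrate reductase and GLT1 at 45.9% to 55.3% of glutamate synthase, each outside the range of its wild type.

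Per kilobase, the order of levels in the SnRK1-labelled line ran from NIA2 (632 ± 38.2 CPM per kb) over GLN2 (212 ± 42.8) and GLN1;2 (153 ± 8.64) to NIA1 (134 ± 16.3), NIR1 (108 ± 8.06) and GLT1 (98.4 ± 31.8). GLN1;1 (75.6 ± 12.9), GLU1 (71.8 ± 14.5), GLN1;3 (42.8 ± 12.0) and GLN1;4 (0.793 ± 0.248) followed. In its wild type the order was NIA2 (414 ± 67.8), GLN2 (329 ± 66.3), GLN1;2 (148 ± 13), GLU1 (87.2 ± 20.0), NIA1 (32.9 ± 2.38), GLT1 (28.6 ± 6.11), NIR1 (16.4 ± 2.89), GLN1;3 (12.3 ± 1.52), GLN1;1 (9.47 ± 0.834) and GLN1;4 (0.387 ± 0.266). These are means with SD over 3 libraries. In the SnRK1-labelled line the ranges over libraries overlap between the neighbours GLN1;2 and NIA1, NIR1 and GLT1, GLT1 and GLN1;1, and GLN1;1 and GLU1. In its wild type they overlap between NIA2 and GLN2, NIA1 and GLT1, and NIR1 and GLN1;3.

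In the S1-labelled line the order was NIA2 (912 ± 242 CPM per kb), GLN2 (429.6 ± 43.1), GLN1;2 (146 ± 7.87), GLU1 (137 ± 8.43), NIA1 (56.7 ± 11.5), GLT1 (31.6 ± 7.20), NIR1 (20.4 ± 4.57), GLN1;1 (12.7 ± 3.85), GLN1;3 (9.65 ± 3.19) and GLN1;4 (0.514 ± 0.548). Its wild type had NIA2 (1146 ± 176), GLN2 (528 ± 48.6), GLN1;2 (183 ± 29.3), GLU1 (158 ± 12.4), NIA1 (81.5 ± 35.0), GLT1 (30.6 ± 3.89), NIR1 (26.8 ± 5.68), GLN1;3 (11.1 ± 1.15), GLN1;1 (7.73 ± 2.40) and GLN1;4 (0.435 ± 0.205). Both S1-experiment groups share their first 7 places, and the ranges of GLN1;2 and GLU1 and of GLN1;1 and GLN1;3 overlap in each, as do those of GLT1 and NIR1 in wild type. The SnRK1-labelled line differs from the other groups in that GLU1 stands below NIA1, NIR1 and GLT1, as a description of the means.

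Scaling matters in this comparison because so many genes differ. The median log2 fold change of all genes was 0.04 by trimmed means (TMM), 0.40 when only the 5000 most expressed genes set the scale and 0.64 by library totals. Of the genes called, 51.8%, 68.7% and 78.1% were higher under these scalings. Relative to those medians NIR1 stood at 2.66, 2.67 and 2.67, GLN1;1 at 2.94, 2.96 and 2.96, and NIA2 at 0.57 each time. GLN2 stood at -0.68 each time and GLU1 at -0.32, -0.32 and -0.33. A change of scale shifts all genes by nearly the same amount, so these distances from the median could hardly differ. They give places among all genes and do not test the direction of any gene. The 6 genes called higher kept that call under each of the 3 scalings.

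**Figure D4:**
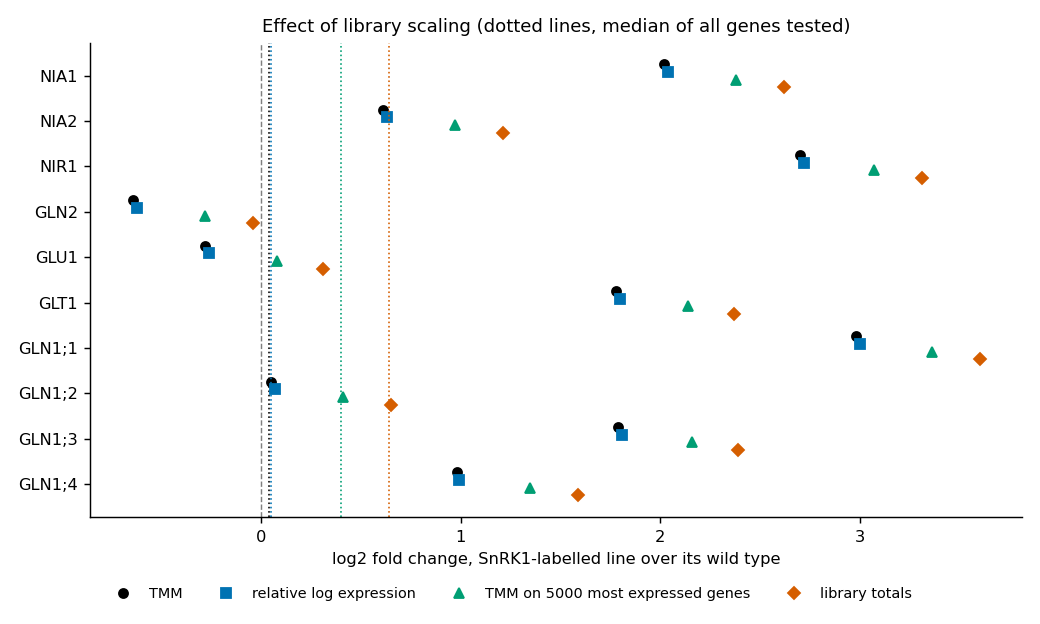
Log2 fold change of each gene, SnRK1-labelled line over its wild type, under 4 ways of scaling the libraries, with dotted lines at the median of all genes tested, 0.04 to 0.64. GLN2 reaches -0.04 and GLU1 0.31 by library totals, while NIR1, NIA1, GLT1, GLN1;1 and GLN1;3 stay above 1.7 throughout.

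The S1-labelled line gave no call for any of the 10 genes, against 2.58% of all genes called in that comparison. By edgeR's test 4 of the 10 had an unadjusted p under 0.05 (NIA1, NIR1, GLN1;2 and GLN1;1), as did 2992 of all 18388 genes, and DESeq2 and limma-voom also called 0. The median log2 fold change was -0.25 over the 10 genes and 0.00 over all genes. NIA1 (-0.52 ± 0.23, interval -1.0 to -0.04, adjusted p = 0.266), NIA2 (-0.33 ± 0.22, interval -0.79 to 0.13, adjusted p = 0.486) and NIR1 (-0.38 ± 0.18, interval -0.76 to -0.01, adjusted p = 0.298) had estimates below 0. These intervals leave room for NIA1 to be lower by a full log2 unit.

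GLN1;1 had the largest positive estimate in the S1-labelled line. It measured 24.8, 22.3 and 13.2 CPM there, against 12.1, 8.56 and 16.2 CPM in its wild type (0.70 ± 0.23, interval 0.21 to 1.2, adjusted p = 0.130). Replicate 3 of the line lies among the wild-type libraries, and without it the estimate is 0.93 with an adjusted p of 0.0372. As a share of cytosolic glutamine synthetase, GLN1;1 took 8.42%, 8.69% and 5.17% in the S1-labelled line, against 4.49%, 2.54% and 4.53% in its wild type. The shares do not overlap, at the smallest p that this design allows (exact permutation p = 0.1). GLN2 and GLU1 were the 2 of 10 whose CPM did not overlap, a share near the 23.6% of all genes without overlap. GLN2 had 984, 805 and 918 CPM in the S1-labelled line, against 1062, 1039 and 1226 CPM in its wild type (-0.30 ± 0.18, adjusted p = 0.458). GLU1 had 801, 709.6 and 745 CPM, against 947, 831 and 827 CPM in wild type (-0.21 ± 0.18, adjusted p = 0.635). All 3 libraries of the line lay below their wild type for both genes, without passing the test. GLT1 (0.05 ± 0.22), GLN1;3 (-0.18 ± 0.24), GLN1;2 (-0.32 ± 0.14) and GLN1;4 (0.28) were not called.

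The difference between the 2 line responses was tested in the same fit, and 6 of the 10 genes had a larger response in the SnRK1-labelled line. Of all genes, 54.5% were called in that test, 27.2% in the same direction. The difference was largest for NIR1 (3.09 ± 0.25, adjusted p = 1.21e-07), followed by NIA1 (2.54 ± 0.33, adjusted p = 9.48e-06), GLN1;1 (2.28 ± 0.32, adjusted p = 1.89e-05), GLN1;3 (1.97 ± 0.32, adjusted p = 7.15e-05), GLT1 (1.73 ± 0.31, adjusted p = 0.000209) and NIA2 (0.94 ± 0.31, adjusted p = 0.0160). The call for NIA2 is lost without S1-labelled replicate 2 (0.76, adjusted p = 0.0651) or 3 (0.85, adjusted p = 0.0511). GLN1;2 was not called (0.37 ± 0.19, adjusted p = 0.117), but would be without replicate 1 of the wild type with 1 d of Est (0.49, adjusted p = 0.0390) and by library totals (0.85, adjusted p = 0.000876). GLN2 (-0.34 ± 0.26, but 0.14 by library totals), GLU1 (-0.07 ± 0.26, but 0.40 by library totals) and GLN1;4 (0.70) were not called. The lines also differed in 6 d or 1 d of Est, so line and schedule cannot be told apart in this difference.

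Wild type itself differed between the schedules: 5 of the 10 genes were lower with 6 d of Est than with 1 d, and none was higher. Of all genes 12.1% were called, 5.94% lower, and the median log2 fold change was -0.49 over the 10 genes against -0.01 over all. The genes were NIA2 (-1.47 ± 0.22, adjusted p = 0.000683), NIA1 (-1.3 ± 0.23, adjusted p = 0.00224), GLU1 (-0.86 ± 0.18, adjusted p = 0.00650), NIR1 (-0.68 ± 0.18, adjusted p = 0.0225) and GLN2 (-0.68 ± 0.19, adjusted p = 0.0247). Their CPM, given above, do not overlap between the 2 wild-type groups for any of these 5, against 34.0% of all genes in either direction. GLN1;1 (0.30 ± 0.25), GLN1;2 (-0.31 ± 0.14), GLN1;3 (0.15 ± 0.24), GLN1;4 (-0.18) and GLT1 (-0.10 ± 0.22) were not called. These wild-type libraries are also the controls of the line comparisons. NIR1 and GLN2 lose their calls without replicate 2 or 3 of either wild-type group, with adjusted p of 0.0617 to 0.110 for NIR1 and 0.0520 to 0.116 for GLN2. Days on Est and any other difference between the 2 experiments cannot be told apart. Of the markers given above, 2 of 3 tested root genes were called higher with 6 d of Est and 0 of 5 leaf genes were called by edgeR (2 at an unadjusted p under 0.05, 1 called by DESeq2 and 0 by limma-voom), and their part in this result was not tested.

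As a share of glutamate synthase, GLT1 stood at 23.6% ± 2.94 in wild type on 6 d of Est and 15.7% ± 0.608 on 1 d (SD, n = 3 each, exact permutation p = 0.1). GLN2 made up 65.7% ± 2.89 of glutamine synthetase on 6 d and 72.3% ± 2.44 on 1 d (exact permutation p = 0.1). NIA1 held 7.43% ± 0.664 of nitrate reductase on 6 d and 6.49% ± 1.96 on 1 d (exact permutation p = 0.5), so both nitrate reductases were lower with 6 d of Est without a resolved change of share.

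For each gene called in a line comparison, the genes whose centred log2 CPM over the 12 libraries lay closest were listed, by root mean square distance. NIR1 lay closest to the receptor-like kinase gene CRK10 (0.12) and to MEK1 (0.17), GLN1;1 to EDS1 (0.17) and AT2G30550 (0.23), and GLT1 to ECA4 (0.13) and MTO3 (0.16). GLN1;3 lay closest to MVP1 (0.16) and to GLU2 (0.17), the other ferredoxin-dependent glutamate synthase gene. NIA1 had HTA6 (0.20) and PFA-DSP1 (0.23) nearest, NIA2 had AT1G61190 (0.22) and WRKY20 (0.24), and GLN2 had AT4G39970 and TUB5 (0.14 each). All 14 were also among the nearest when libraries were scaled by their totals. With 68.4% of all genes called in the SnRK1 comparison, a similar fold change there can by itself bring genes close. A typical distance between genes was not worked out, so these lists do not show a tie particular to the named pairs.

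Beyond the 10 genes, 52 genes that serve the same route were examined, 49 of which were tested. In the SnRK1-labelled line 21 were called higher and 16 lower, with a median log2 fold change of 0.11 against 0.04 over all genes. That share is near the 68.4% of all genes called, 35.4% higher and 33.0% lower. By library totals the split was 33 higher and 12 lower. In the S1-labelled line 0 of the 49 were called by edgeR, DESeq2 or limma-voom, and 6 had an unadjusted p under 0.05.

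The genes that feed electrons to nitrite reductase in tissue without light were among those that rose. Of 7 genes of plastid reductant supply, 6 rose and 0 fell in the SnRK1-labelled line, with a median log2 fold change of 1.81. Of all genes 68.4% were called, 35.4% higher and 33.0% lower. RFNR1, a root-type ferredoxin-NADP reductase, had 116, 143 and 104 CPM in the SnRK1-labelled line, against 5.79, 6.25 and 8.37 CPM in its wild type, and rose 18.4-fold (4.20 ± 0.17, adjusted p = 5.03e-12). RFNR2, of the same family, had 79.6, 80.0 and 69.6 CPM, against 7.46, 8.56 and 7.79 CPM in wild type (3.27 ± 0.14, adjusted p = 9.25e-12). PGD3, a 6-phosphogluconate dehydrogenase, had 121, 125 and 137 CPM, against 39.9, 35.9 and 40.4 CPM in wild type (1.72 ± 0.10, adjusted p = 4.89e-10). The other 3 called were the root-type ferredoxin FD3 and the glucose-6-phosphate dehydrogenases G6PD2 and G6PD3, and PGD1 was not called (-0.03). In the S1-labelled line RFNR1 measured 5.80, 5.94 and 4.59 CPM, against 4.64, 3.57 and 5.60 CPM in its wild type, which overlap.

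Nitrite and nitrate reductase need siroheme and molybdenum cofactors. Of 8 genes for these, 5 rose and 1 fell in the SnRK1-labelled line, with a median of 0.52. Of all genes 68.4% were called, 35.4% higher and 33.0% lower. By library totals 7 of the 8 were called higher and 0 lower, and on the 5000 most expressed genes 6 and 0, so the call of a fall is lost. UPM1, a methyltransferase of siroheme synthesis, had 79.4, 66.1 and 66.4 CPM there, against 28.4, 29.1 and 26.8 CPM in its wild type (1.32 ± 0.16, adjusted p = 1.54e-06). The molybdenum cofactor genes CNX5 (0.90 ± 0.13, adjusted p = 7.39e-06) and CNX2 (0.84 ± 0.13, adjusted p = 1.42e-05) also rose.

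Of 4 ammonium transporter genes tested 2 rose and 2 fell, and with the PII regulator gene GLB1 (0.89, adjusted p = 0.00204) all 5 tested in this group were called, where 68.4% of all genes were. AMT2;1 had 109.6, 104 and 80.4 CPM in the SnRK1-labelled line, against 12.7, 12.0 and 14.7 CPM in its wild type, and rose 7.55-fold (2.92 ± 0.17, adjusted p = 2.50e-10). AMT1;1 rose (1.68 ± 0.14, adjusted p = 1.66e-08) whereas AMT1;2 (-1.44 ± 0.26, adjusted p = 0.000112) and AMT1;3 (-1.62 ± 0.42, adjusted p = 0.00261) fell. GLU2 had 114, 109 and 91.0 CPM in the SnRK1-labelled line, against 37.6, 34.7 and 30.3 CPM in its wild type (1.61 ± 0.16, adjusted p = 1.62e-07), and GLN1;5 had too few counts to be tested.

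Regulators of the nitrate response did not move one way. Of 15 tested, 2 were called higher and 6 lower in the SnRK1-labelled line (median 0.05), and by library totals 9 were called higher and 4 lower. Of all genes 68.4% were called, 35.4% higher and 33.0% lower, in the main fit. HHO2, a repressor of the nitrate response, fell (-1.11 ± 0.11, adjusted p = 1.61e-07), as did BT2 (-2.02 ± 0.24, adjusted p = 1.40e-06), which limits nitrate use, and the nitrate-responsive activator NLP6 (-1.24 ± 0.16, adjusted p = 2.00e-06). These 3 fell under each scaling.

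Most genes of the photorespiratory nitrogen cycle were lower. Of 8 genes 6 fell and 2 rose in the SnRK1-labelled line, with a median of -1.67, where 35.4% of all genes were called higher and 33.0% lower. The glycine decarboxylase genes GLDP2 (-3.07 ± 0.27, adjusted p = 3.76e-08), GLDP1 (-2.75 ± 0.25, adjusted p = 6.12e-08) and GLDT (-2.03 ± 0.20, adjusted p = 1.26e-07) fell, and the summed leaf markers fell alongside to 4345 to 9013 CPM, against 30231 to 39352 CPM in wild type. Their part in this result was not tested. Among the genes that supply 2-oxoglutarate, the aconitase gene ACO3 rose (1.12 ± 0.15, adjusted p = 4.04e-06), while cytosolic isocitrate dehydrogenase CICDH was called lower (-0.65 ± 0.16, adjusted p = 0.00192) by TMM but not by library totals (-0.05).

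**Figure D5:**
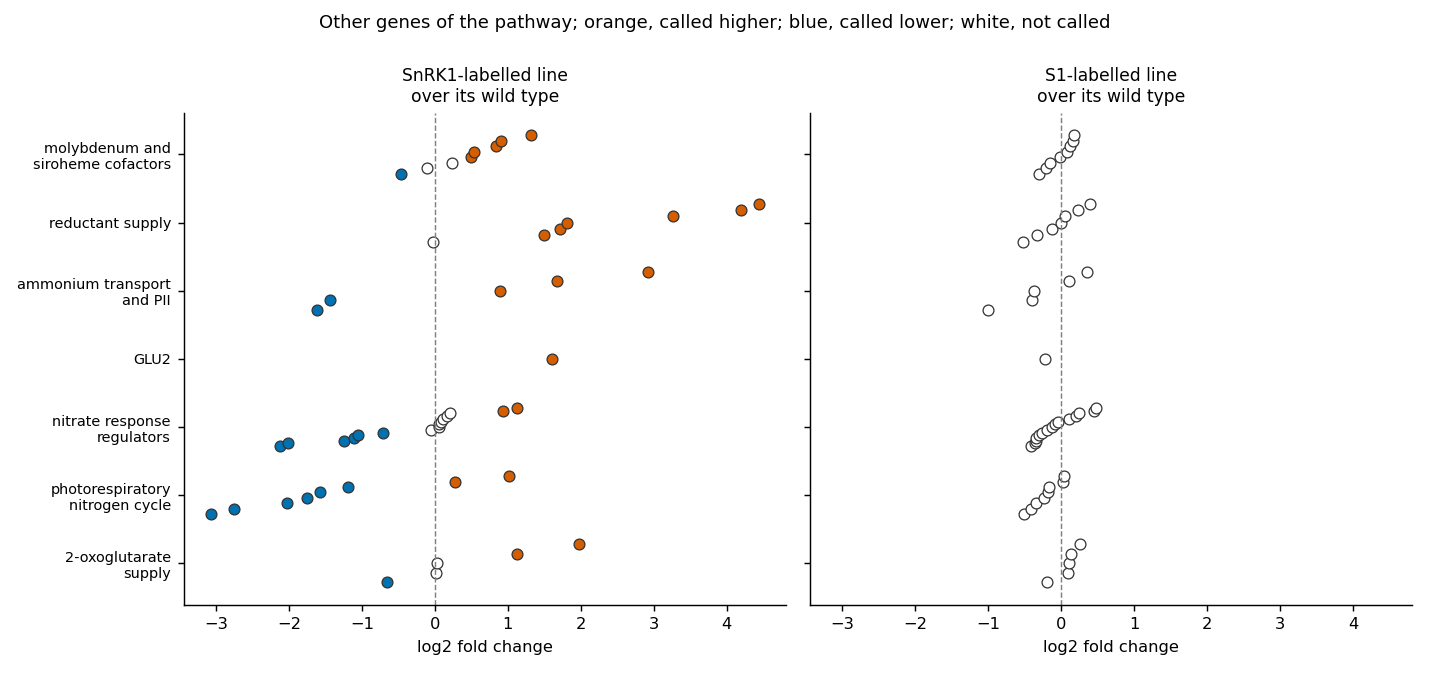
Log2 fold changes of 49 further genes of the route by function, in the SnRK1-labelled line (left) and the S1-labelled line (right), each over its wild type, where orange is called higher, blue called lower, white not called. In the left panel 6 of 7 reductant genes are called higher and 6 of 8 photorespiratory genes lower, and no gene is called in the right panel.

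Between the wild-type groups 7 of these 49 genes were called, 3 higher and 4 lower with 6 d of Est, against 12.1% of all genes. They included FD3 (0.67 ± 0.16, adjusted p = 0.0134), AMT1;2 (-0.93 ± 0.24, adjusted p = 0.0175), LBD37, a repressor of nitrogen-responsive genes (-0.66 ± 0.15, adjusted p = 0.00988), the plastid 2-oxoglutarate translocator DIT1 (-0.63 ± 0.14, adjusted p = 0.00898) and the molybdenum cofactor gene CNX6 (-0.44 ± 0.13, adjusted p = 0.0341). Each of these 5 lost its call in 1 to 4 of the 6 fits that leave out a wild-type library.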

How the data were processed

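Each of the 12 deposited tables gives whole-number read counts per gene for a single library, as raw counts with differing totals, and 0 columns were left unmatched. Bowtie 0.12.8, SAMtools 0.1.18, FastQC and the TAIR10 genome are named per the submitters' processing notes, while the sources used here do not give the counter, the strand or the treatment of multiple hits. Whether replicates were independent cultures is not stated, and p-values therefore reflect only the spread between libraries.

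Counts were tested with edgeR 4.0.16 (R 4.3.3): TMM scaling, genes kept by filterByExpr at a minimum count of 10, 12 libraries in 1 quasi-likelihood fit with a common biological variation of 13.2%, and Benjamini-Hochberg adjustment over all 18388 genes. The code was tested on simulated data. Intervals are 95%. Alternatives used DESeq2 1.42.0 and limma 3.58.1. CPM were divided by exon length from TAIR10.1, to which 27996 of 28775 genes matched. Isoform shares were compared by exact two-sided permutation. Named genes were all members, the 3 called genes with the smallest p in each other list (1 between wild types) and the 2 nearest in pattern, except for a gene that is not reported here. Members and lists were chosen with earlier results of these data known.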

Additional observations from a re-analysis of the deposited data

Results flagged for a closer look

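The responses of 6 genes in the SnRK1-labelled and S1-labelled lines differed by a test of the difference itself, SnRK1 response minus S1 response on the log2 scale, in edgeR's quasi-likelihood fit. The values were 3.09 for NIR1, 2.54 for NIA1, 2.28 for GLN1;1, 1.97 for GLN1;3, 1.73 for GLT1 and 0.94 for NIA2. Line and Est schedule cannot be told apart in them. Groups of 3 libraries are too small for a test of single outlying libraries.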

How the results depend on the processing

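Across all alternative settings, 199 counts and shares gave the same outcome, 20 moved and 3 reversed. For a share, the same outcome means only that the difference kept its sign, whatever its size or p. For single genes 616 were the same, 9 gained and 14 lost a call, and 18 reversed. Leaving out 1 library at a time gave 140 to 390 genes called in the S1 comparison (474 with all) and 0 to 1 of the 10 genes, 1211 to 1753 genes (2227) and 3 to 5 of the 10 between wild types. The S1 count fell to 312, 147 and 284 without S1-labelled replicate 1, 2 or 3 and to 140 and 169 without wild-type replicate 2 or 3. The count between wild types fell to 1211 and 1263 without replicate 2 or 3 on 6 d of Est, and to 1373 and 1262 without replicate 2 or 3 on 1 d. The GLN2 share difference in the S1 comparison then ran from -1.80 to 0.635 percentage points and the NIA1 share difference from -1.25 to 0.545. A fit on the groups compared alone called 1029 genes in the S1 comparison. Asking for at least 2-fold left 7290 genes (SnRK1), 208 (S1), 6629 (difference) and 584 with 2 of the 10 (wild types). By library totals GLU1 reversed to 0.31 in the SnRK1 comparison, and GLN2 to 0.14 and GLU1 to 0.40 in the difference. On the 5000 most expressed genes these were 0.08, 0.01 and 0.27. GLN1;4 in the S1 comparison was -0.13 by limma-voom. Without 1 library at a time, log2 fold changes spanned 0 for GLN1;2 (-0.03 to 0.08, SnRK1), GLT1 (-0.16 to 0.16), GLN1;3 (-0.49 to 0.00) and GLN1;4 (-1.20 to 0.79) in the S1 comparison, GLU1 (-0.25 to 0.08) in the difference, and GLT1 (-0.29 to 0.01) and GLN1;4 (-0.81 to 0.34) between wild types. For values the text does not explain, the cause was not tested.

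Called genes were 63.1% higher in the S1 comparison and 84.5% by library totals. In the difference they were 49.9%, against 74.7% by totals and 68.4% on the 5000 most expressed genes, and between wild types 51.0%, 33.5% and 39.3%. A fit with the replicate number as a block called 12815 genes and 7 of the 10 in the SnRK1 comparison, 615 and 0 in S1, 10316 and 6 in the difference, and 2565 and 5 between wild types. To look for pairing, the group mean of each gene was subtracted from its log2 CPM, and what remained was correlated between the 2 groups. Same-numbered libraries correlated at 0.118, -0.00758 and -0.0191 in the SnRK1 comparison, and differently numbered ones at -0.0919 to 0.0838. In the S1 comparison same-numbered libraries gave 0.0432, -0.0276 and -0.0917, and differently numbered ones -0.113 to 0.142. Groups of 3 libraries are too small for these values to settle whether the numbers pair libraries. Depth limits GLN1;4 above all, with at most 36 counts in a group, and it was not tested when 5 CPM in 3 libraries was required.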
